A study of Saccharomyces cerevisiae with 18 samples.

Results

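Replicatively aged and young budding yeast cells that lack both MSN2 and MSN4 were compared across all measured genes. The comparison holds 6 of the 18 RNA sequencing libraries of the study, 3 from aged and 3 from young cells, and a count table of 7118 features, of which 6833 had enough reads to be tested. The strain, CGY69.30, carries the alleles msn2::HphNT1 and msn4::NatNT2 in a MAT@ background, as the labels write the mating type. Aged cells were mothers that were pre-grown, labelled with biotin, bound to magnetic beads and then cultured on those beads for 24 h in Ministat Aging Devices. Young cells came from exponential growth. Young cells were grown, and aged cells pre-grown, in an SC YNB medium that lacked biotin and held 2% glucose and 2% MMP DAPA at pH 4.5. The same 2 ages of CGY4.51 (wild type, MAT@) and of CGY61.46 (MAT@ msn2::HphNT1) are used below only where an age effect of the double deletion is set against theirs. Each genotype is represented by 1 strain. Whether the 3 replicates of a group were grown apart is not labelled, and the p-values below rest on their spread, which may be technical only. Aged and young samples also differ in beads, in the device and in the selection of mothers, and these cannot be told apart from age.

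Msn2 and Msn4 are related zinc-finger transcription factors that move into the nucleus when glucose runs low, when protein kinase A activity drops, or under heat, oxidative and osmotic stress. There they bind the stress response element, AGGGG, and switch on genes for chaperones, trehalose and glycogen metabolism and antioxidant enzymes. Budding mother cells produce a limited number of daughters, and their transcriptome changes as they divide.

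The libraries of aged double deletion cells held 4078400 to 7136185 counts, and those of the young cells 27698098 to 33651287. Aged wild type libraries held 29230104 to 41649952 counts and aged msn2 deletion libraries 38301372 to 41160297. Low depth was thus particular to the aged double deletion, and it goes together with strain wherever age effects are compared between strains. The median standard error of the log2 fold change with age was 0.113 in the double deletion and 0.104 in wild type. Levels are given as CPM, counts scaled to a common library size with TMM factors, for replicates 1, 2 and 3. MSN2 had 3.98, 4.99 and 3.88 CPM in aged and 4.48, 3.63 and 2.6 CPM in young double deletion cells, against 31.7, 33.2 and 35.4 CPM in aged wild type. MSN4 had 14.5, 12 and 13.6 CPM in aged and 23.9, 22.2 and 18.1 CPM in young double deletion cells, against 52.8, 48.8 and 53 CPM in aged wild type, so reads on the MSN4 locus were lower but present. Markers of daughter cells (10 genes) summed to 1960 to 2280 CPM in aged and 1800 to 2090 CPM in young double deletion cells. Markers of MATa cells (6 genes) summed to 52.1 to 55.4 CPM in aged and 31.7 to 39.1 CPM in young cells, and those of MAT alpha cells (4 genes) to 4110 to 4540 CPM in aged and 5740 to 6080 CPM in young cells. Markers of sporulating cells (4 genes) summed to 44.5 to 51.7 CPM in aged and 48 to 53.9 CPM in young cells. No marker was at 0 in any group, and the part of other cells in the results was not tested. Young replicate 3 stood apart from the other young libraries in the share of counts on cytosolic ribosomal protein genes, at 35.71% against 39.31% and 39.76%. Aged replicate 3 had 0.125% of its counts on mitochondrial features, against 0.285% and 0.288% in the other aged libraries.

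Between aged and young double deletion cells 4179 genes differed in edgeR's quasi-likelihood test at a Benjamini-Hochberg adjusted p under 0.05, which is 61.2% of those tested. Of these, 2135 were higher (31.2%) and 2044 lower (29.9%) in aged cells. At least 2-fold differences were found in 385 higher genes (5.63%) and 401 lower genes (5.87%), but with library totals in place of TMM scaling 1080 were higher and 69 lower by that measure. Of the 385 higher genes 186 averaged under 3 in log2 CPM, and of the 401 lower genes 73. Among genes with at least 10 CPM in 3 libraries, 245 were at least 2-fold higher and 303 lower. With TMM scaling 21 genes were at least 16-fold higher and 56 between 4 and 16-fold higher, while 1 was at least 16-fold lower and 22 between 4 and 16-fold lower. Aged and young libraries did not overlap for 4218 genes (61.7%). These directions are relative to the TMM scaling. With library totals in its place the median of all genes moved by 0.43 on the log2 scale, and 4104 genes were then higher and 827 lower.

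**Figure D1:**
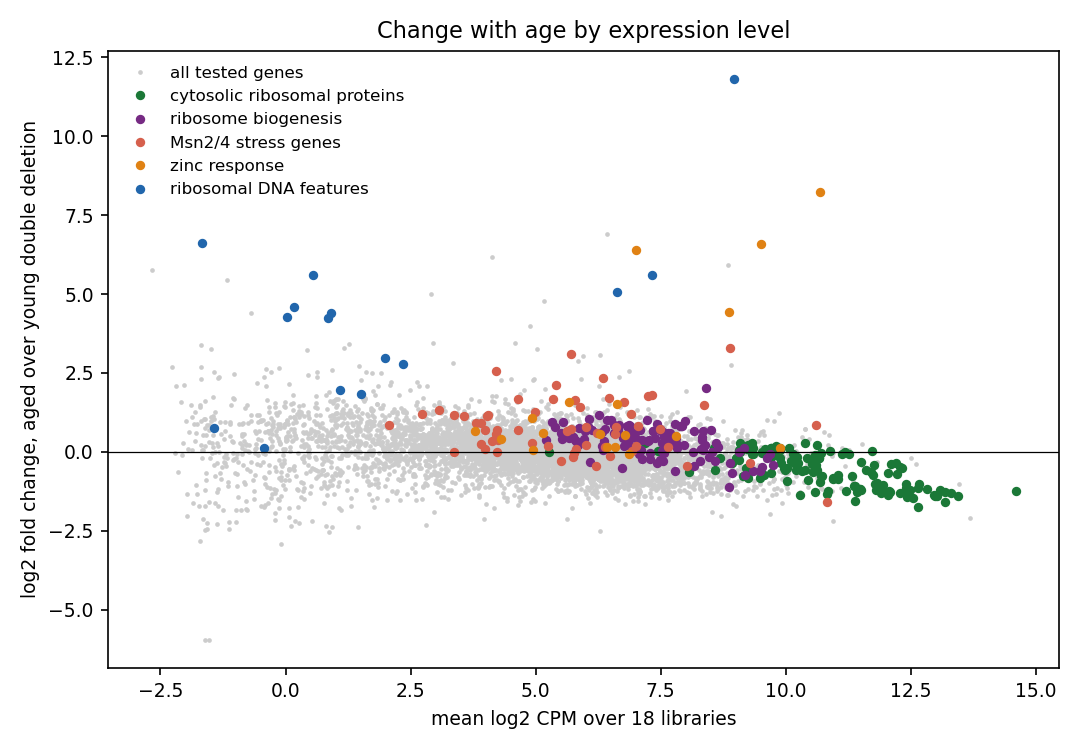
Log2 fold change of aged over young double deletion cells (vertical axis) against the mean log2 CPM over 18 libraries (horizontal axis), 1 point per tested gene, with 5 gene lists in colour. The zinc genes ZPS1, ZRT1 and VEL1 lie at 8.22, 6.60 and 6.39, and the highly expressed ribosomal protein genes lie mostly below 0, with a median of -0.56.

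Msn2/4 target genes were the first group examined, since both of their activators are missing. Of 61 stress genes tested, 39 rose with age, 5 fell and 17 did not pass, with a median log2 fold change of 0.72 against 0.03 over all genes tested. Wild type showed 56 higher and 2 lower members, at a median of 1.21. Of all genes 63.9% passed in wild type, 33.3% higher and 30.6% lower. The levels stayed low: summed over the list, aged double deletion cells held 4533, 4529 and 4256 CPM and young ones 5381, 4904 and 4296 CPM, against 14495, 15091 and 14201 CPM in aged wild type. The sums of aged and young double deletion cells overlap through young replicate 3. TRX2, a thioredoxin gene, made up much of the young sums, with 842, 747 and 617 CPM in aged and 2740, 2300 and 1621 CPM in young double deletion cells, and it fell by 1.59 ± 0.19 (SE) on the log2 scale.

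HSP12, which encodes a small membrane-stabilising heat shock protein, had 96.2, 92.1 and 101 CPM in aged and 9.13, 9.66 and 10.9 CPM in young double deletion cells. The groups do not overlap, as for 61.7% of all genes, and the log2 fold change was 3.28 ± 0.161 (edgeR adjusted p = 2.63e-12). Even so, HSP12 in aged double deletion cells stayed below its level in young wild type, which was 606, 786 and 698 CPM. HSP26, a small heat shock chaperone that holds unfolded proteins, had 51.6, 55.1 and 54.3 CPM in aged and 10.5, 11.4 and 10.1 CPM in young double deletion cells, a log2 fold change of 2.33 ± 0.114. In aged wild type HSP26 reached 287, 300.5 and 297 CPM. HXK1, a hexokinase of low-glucose growth, had 11.7, 17.2 and 12.4 CPM in aged and 1.61, 1.47 and 1.62 CPM in young double deletion cells (3.10 ± 0.198), while aged wild type had 178, 178 and 198 CPM.

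CTT1, the cytosolic catalase and a classical Msn2/4 reporter, had 7.61, 9.99 and 7.64 CPM in aged and 8.62, 8.56 and 7.52 CPM in young double deletion cells. These groups overlap, and the log2 fold change was 0.00 ± 0.174 (edgeR adjusted p = 0.997); with library totals in place of TMM it was 0.435 and passed. TSL1, a regulatory subunit of trehalose synthase, had 15.7, 16 and 13.9 CPM in aged and 12, 12.9 and 14.4 CPM in young double deletion cells and did not pass (0.20 ± 0.103). It passed with library totals (0.627) and without young replicate 3 (0.268, edgeR adjusted p = 0.0342). GND2, the minor isoform of 6-phosphogluconate dehydrogenase, had 6.68, 6.99 and 4.82 CPM in aged and 3.59, 2.98 and 3.16 CPM in young double deletion cells, a rise of 0.91 ± 0.163, against 40.4, 36.4 and 35.9 CPM in aged wild type. Other members that rose were UBI4, polyubiquitin (1.48 ± 0.0682), SSA4, a stress-induced Hsp70 (1.58 ± 0.0732), and NQM1, a transaldolase (2.13 ± 0.0881).

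The promoters of 4 of these genes are shown because they hold the Msn2/4 binding element in the same window while their age effects range from 0.00 to 3.28. Each sequence runs 5′ to 3′ on the coding strand from 250 bases before to 50 bases after the start codon's first base, from the RefSeq genome of build R64, and capitals mark AGGGG or its reverse complement CCCCT. The windows are chrVI:107006-107305 for HSP12, chrVII:654384-654683 for CTT1, chrVII:1004374-1004673 for GND2 and chrXIII:70374-70673 for TSL1, all on the plus strand.
HSP12: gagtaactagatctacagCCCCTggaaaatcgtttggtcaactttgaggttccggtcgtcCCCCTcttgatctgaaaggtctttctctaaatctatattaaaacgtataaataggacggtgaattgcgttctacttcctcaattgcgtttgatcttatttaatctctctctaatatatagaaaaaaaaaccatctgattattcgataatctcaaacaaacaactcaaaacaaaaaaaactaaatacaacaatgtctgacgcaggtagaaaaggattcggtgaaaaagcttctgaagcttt
CTT1: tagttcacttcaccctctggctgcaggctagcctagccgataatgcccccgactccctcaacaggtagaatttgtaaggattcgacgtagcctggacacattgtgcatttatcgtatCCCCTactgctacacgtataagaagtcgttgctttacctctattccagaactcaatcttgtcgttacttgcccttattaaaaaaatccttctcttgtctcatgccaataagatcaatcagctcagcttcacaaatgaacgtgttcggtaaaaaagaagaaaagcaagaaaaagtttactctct
GND2: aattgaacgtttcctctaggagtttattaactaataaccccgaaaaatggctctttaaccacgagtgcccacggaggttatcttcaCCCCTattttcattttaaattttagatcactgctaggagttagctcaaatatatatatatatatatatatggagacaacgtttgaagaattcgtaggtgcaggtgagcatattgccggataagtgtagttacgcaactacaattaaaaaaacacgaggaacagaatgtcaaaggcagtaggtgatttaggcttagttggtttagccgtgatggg
TSL1: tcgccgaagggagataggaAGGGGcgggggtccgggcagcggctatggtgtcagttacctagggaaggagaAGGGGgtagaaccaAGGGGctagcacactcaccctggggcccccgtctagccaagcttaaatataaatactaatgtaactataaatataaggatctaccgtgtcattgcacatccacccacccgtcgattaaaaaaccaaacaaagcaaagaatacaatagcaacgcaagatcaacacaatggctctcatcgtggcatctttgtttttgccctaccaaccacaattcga
HSP12 has 2 matches, which start 232 and 190 bases before the start codon, CTT1 has 1 at 133, GND2 1 at 164 and TSL1 3 at 231, 179 and 165. Among the other genes that rose, the windows of HSP26 and HXK1 hold no match and that of SSA4 holds 1. The element, on either strand, lies in 21.7% of 5916 such windows. It lies in 68.9% of the windows of the 61 stress genes, in 66.7% of the 39 that rose and in 72.7% of the 22 others. Among the genes at least 2-fold higher in aged double deletion cells, 29.2% of 298 windows hold it, and among those at least 2-fold lower 15.4% of 298. A match is a string of letters, not a shown binding site, and bases further upstream than the window were not searched.

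The age effects of the double deletion and of wild type were compared directly, as the difference between both log2 fold changes in the same fit. Over all genes 1104 differed (16.2%), 490 with the larger value in the double deletion (7.17%) and 614 with the smaller (8.99%). Of the 61 stress genes, 37 had a smaller and 6 a larger age effect in the double deletion, with a median difference of -0.57, and with library totals these counts were 37 and 6. The 5 lowest differences were in GND2 (-2.40 ± 0.197), in SIP18, a desiccation-linked protein (-2.23 ± 0.301), in HSP26 (-2.22 ± 0.153), in EGO4 (-2.11 ± 0.255) and in HSP30, a plasma membrane heat shock protein (-2.10 ± 0.128). SIP18 had 5.15, 6.39 and 4.23 CPM in aged double deletion cells and 3.89, 3.12 and 2.95 CPM in young ones, against 42.7, 45 and 34.7 CPM in aged and 4.68, 6.21 and 5.94 CPM in young wild type. EGO4 fell in the double deletion, with 21.8, 17.6 and 14.8 CPM in aged and 31.8, 30.9 and 28.9 CPM in young cells, while in wild type it rose to 185, 215 and 162 CPM in aged cells, against 56.6, 95.9 and 67 CPM in young ones.

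Some genes had a larger age effect in the double deletion than in wild type. HSP12 was one (2.03 ± 0.207), and TMA10, a ribosome-associated protein, was another (1.83 ± 0.233). TMA10 had 107, 100.5 and 96.8 CPM in aged and 19.4, 19 and 13.4 CPM in young double deletion cells, against 209.8, 234 and 190.0 CPM in aged and 102, 166 and 114 CPM in young wild type. For both genes the aged double deletion lay below aged wild type, and in young cells the ratio between the strains was wider. HUG1, an inhibitor of ribonucleotide reductase that is induced by DNA damage, had 44.4, 47.3 and 47.9 CPM in aged and 12.6, 11.5 and 11.6 CPM in young double deletion cells, against 23.7, 28.7 and 22.3 CPM in aged and 16.3, 28.6 and 24.8 CPM in young wild type, a difference of 1.87 ± 0.255. HSP12 and HUG1 did not have a larger age effect than in the msn2 deletion, which keeps MSN4. The highest differences from that strain were 0.433 among the stress genes and 0.192 among the DNA damage genes, and neither list held a gene that passed as larger.

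**Figure D2:**
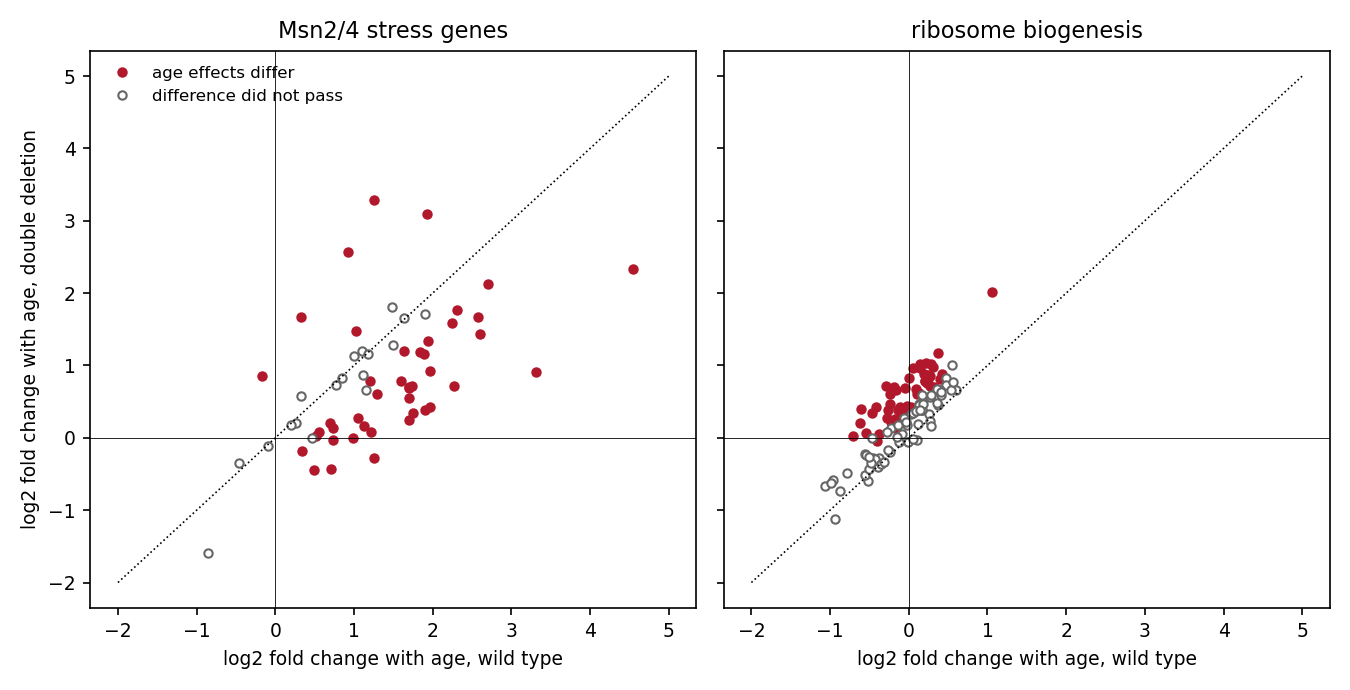
Log2 fold change with age in the double deletion (vertical axis) against that in wild type (horizontal axis) for 61 Msn2/4 stress genes (left) and 115 ribosome biogenesis genes (right), 1 point per gene. Filled points are genes whose age effects differed in the test of the difference, 43 stress genes, of which 37 lie below the dotted line of equal effects, and 51 biogenesis genes, all above it (34 genes of that list with library totals).

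Reserve carbohydrate genes followed the stress list, with which they share members. Trehalose and glycogen accumulate in slow-growing or stressed yeast. Of 20 genes, 9 rose, 2 fell and 9 did not pass in the double deletion, beside 31.2% higher and 29.9% lower over all genes, and with library totals 16 rose and 1 fell. Of the 20, 15 had a smaller age effect than in wild type, none a larger one. GPH1, glycogen phosphorylase, had 14.2, 14.8 and 16.2 CPM in aged and 5.79, 4.93 and 6.04 CPM in young double deletion cells (1.43 ± 0.138), against 216, 209.7 and 231 CPM in aged wild type. NTH1, the neutral trehalase, rose by 0.79 ± 0.0936, and GLC3, the glycogen branching enzyme, by 0.69 ± 0.108. PGM2, phosphoglucomutase, and GLG1, a glycogen primer protein, fell by 0.28 and 0.91 on the log2 scale in the double deletion, whereas PGM2 rose in wild type (1.25 ± 0.0791).

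Chaperone genes moved in both directions. Hsf1, the heat shock factor, drives most of them, and some are also targets of Msn2/4. Of 27 genes, 17 fell and 6 rose in aged double deletion cells, with a median of -0.46, and with library totals in place of TMM 12 fell and 9 rose. The members that rose most were HSP26, HSP42, a small heat shock protein that sorts aggregates (1.66 ± 0.103), and SSA4. SSE1, an Hsp110 nucleotide exchange factor, had 697, 742 and 662 CPM in aged and 1867, 1724 and 1623 CPM in young double deletion cells, a log2 fold change of -1.31 ± 0.0888. HSP10, the mitochondrial co-chaperonin (-1.61 ± 0.19), SSA2, a constitutive Hsp70 (-1.21 ± 0.112), and CUR1 (-1.28 ± 0.121) also fell. HSP104, the disaggregase, fell in the double deletion (-0.43 ± 0.0755) but rose in wild type (0.71 ± 0.0742), a difference of -1.14 ± 0.106. In all, 11 of the 27 had a lower age effect in the double deletion than in wild type and none a higher one. The msn2 deletion resembled the double deletion, with 5 higher and 18 lower at a median of -0.41 (13 and 11 with library totals). Against it, 2 of the 27 had a lower age effect in the double deletion and 1 a higher one (4 and none with library totals).

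The activator Zap1 binds a zinc response element and turns on zinc uptake when zinc in the cell is low. Of 18 zinc-responsive genes 13 rose and none fell, 18 and none with library totals. ZPS1, a secreted or cell surface protein of the zinc response, had 5597, 4709 and 5783 CPM in aged and 19.9, 17.7 and 16.4 CPM in young double deletion cells, a log2 fold change of 8.22 ± 0.16 (edgeR adjusted p = 3.07e-19). Its level in aged wild type was 2251, 2305 and 2142 CPM. ZRT1, the high-affinity zinc transporter, had 2091, 2131 and 1990 CPM in aged and 21.8, 19 and 23.3 CPM in young double deletion cells (6.60 ± 0.119). ADH4, an alcohol dehydrogenase isoform, had 1155, 1117 and 1179 CPM in aged and 58.9, 51.1 and 50.9 CPM in young cells (4.42 ± 0.0887). None of these aged and young groups overlap, as for 61.7% of all genes. Non-overlap was also a condition for naming the genes with the highest fold changes. ZAP1 itself rose about as much as in wild type, by 1.07 ± 0.0929 in the double deletion and 1.12 ± 0.0876 in wild type, and the difference did not pass. ZRT3, the vacuolar zinc exporter (1.51 ± 0.0974), and FET4, a low-affinity iron and zinc transporter (1.59 ± 0.0735), rose as well.

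VEL1 and YOR387C, whose functions are not described in the files, stand on chromosomes VII and XV and share 92.4% of 621 coding bases, so their counts may not be separable. VEL1 had 495, 514 and 430.0 CPM in aged and 5.58, 6.17 and 5.38 CPM in young double deletion cells, and YOR387C had 334, 346 and 279 CPM in aged and 2.62, 1.92 and 3.41 CPM in young ones. Their age effects were larger than in wild type by 2.00 ± 0.152 for VEL1 and 2.15 ± 0.197 for YOR387C. ZPS1 also had a larger age effect than in wild type (1.42 ± 0.171), while for ZRT1 and ADH4 the difference did not pass (0.27 ± 0.138 and 0.04 ± 0.11). Against the msn2 deletion, 10 of the 18 zinc genes had a larger age effect in the double deletion and none a smaller one, but with library totals 3 had a larger and 1 a smaller effect.

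The ZRT1 promoter is shown for the zinc response element that it carries, ACCTTNAAGGT, marked in capitals, where N is any base. The window is chrVII:20728-21027 on the plus strand of build R64, from 250 bases before to 50 after the start of the coding sequence.
ZRT1: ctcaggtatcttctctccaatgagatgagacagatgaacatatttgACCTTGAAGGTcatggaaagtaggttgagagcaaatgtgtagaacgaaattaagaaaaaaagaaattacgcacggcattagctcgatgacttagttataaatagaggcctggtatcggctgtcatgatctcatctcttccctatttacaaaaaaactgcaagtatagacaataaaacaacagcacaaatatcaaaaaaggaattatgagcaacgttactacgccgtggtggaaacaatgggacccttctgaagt
The match starts 204 bases before the start codon. This string lies in 5 of 5916 windows, 3 of them among the 18 zinc genes. The windows of ZPS1, ADH4, VEL1 and YOR387C hold no match to these letters. Bases further upstream and near matches were not searched.

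**Figure D3:**
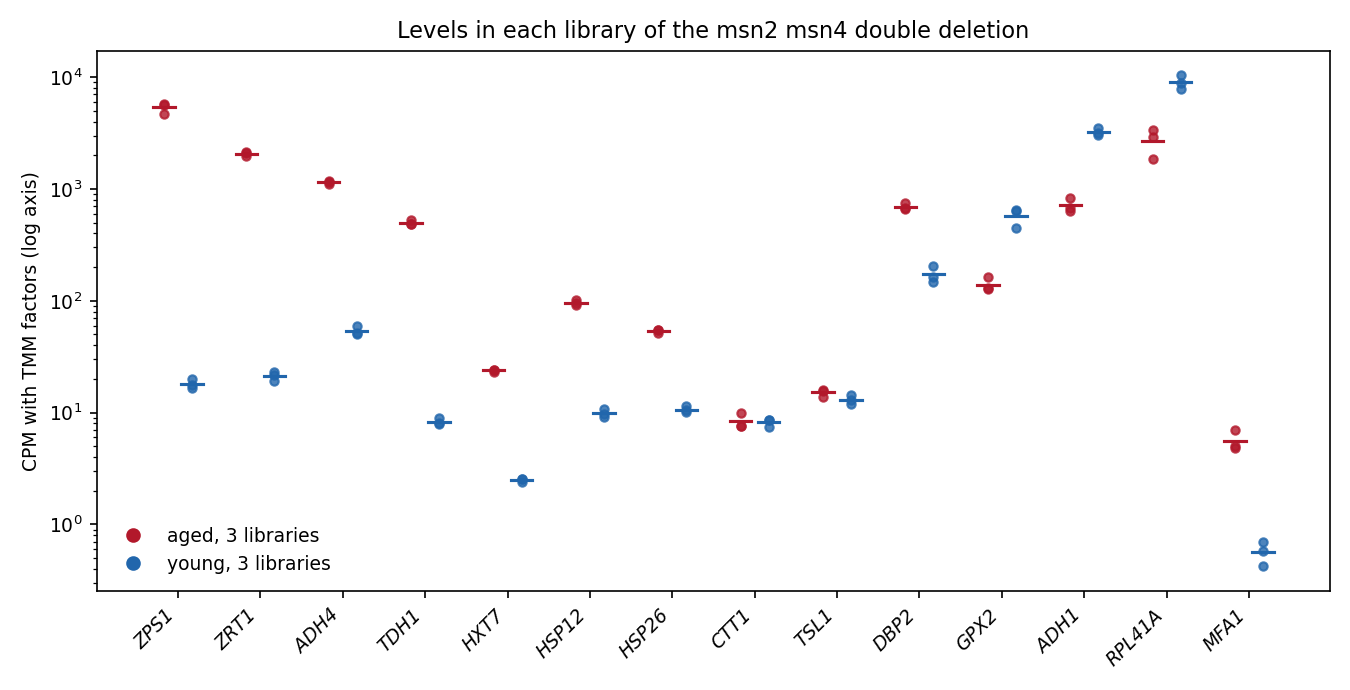
Level of 14 genes in each library of the double deletion (log axis, CPM with TMM factors), with aged cells in red left of young cells in blue and a bar at the mean of 3 libraries. ZPS1, ZRT1, ADH4, TDH1, HXT7, HSP12, HSP26, DBP2 and MFA1 are higher in every aged library, GPX2, ADH1 and RPL41A are lower in every aged library, and the groups of CTT1 and TSL1 overlap.

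Among 16 hexose transporter genes, 11 were higher in aged cells and 1 lower, and their median was 1.00. HXT2, a high-affinity transporter, had 418, 405 and 331 CPM in aged and 95.6, 88 and 118 CPM in young double deletion cells (1.94 ± 0.154). HXT4 rose by 3.03 ± 0.12, less than in wild type (difference -1.32 ± 0.165). HXT7 had 24.2, 23.2 and 24.2 CPM in aged and 2.54, 2.57 and 2.39 CPM in young cells (3.26 ± 0.153), but HXT6 and HXT7 share 99.8% of their coding bases, so the split between them is uncertain. MIG2, a glucose repressor, fell by 1.09 ± 0.119 on the log2 scale. Among 22 glycolytic and fermentation genes 8 rose and 6 fell, where 31.2% of all genes rose and 29.9% fell, and with library totals 12 of them rose and 1 fell. TDH1, a minor glyceraldehyde-3-phosphate dehydrogenase, had 481, 529.7 and 485 CPM in aged and 8.03, 7.88 and 8.99 CPM in young double deletion cells (5.91 ± 0.107), and ENO1, an enolase, rose by 2.76 ± 0.1. ADH1, the main fermentative alcohol dehydrogenase and a zinc enzyme, had 632, 835 and 677 CPM in aged and 3164, 3038 and 3530 CPM in young cells. The fall of ADH1 (-2.18 ± 0.106) was larger than in wild type (difference -0.68 ± 0.144) and than in the msn2 deletion (-0.57 ± 0.144).

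**Figure D4:**
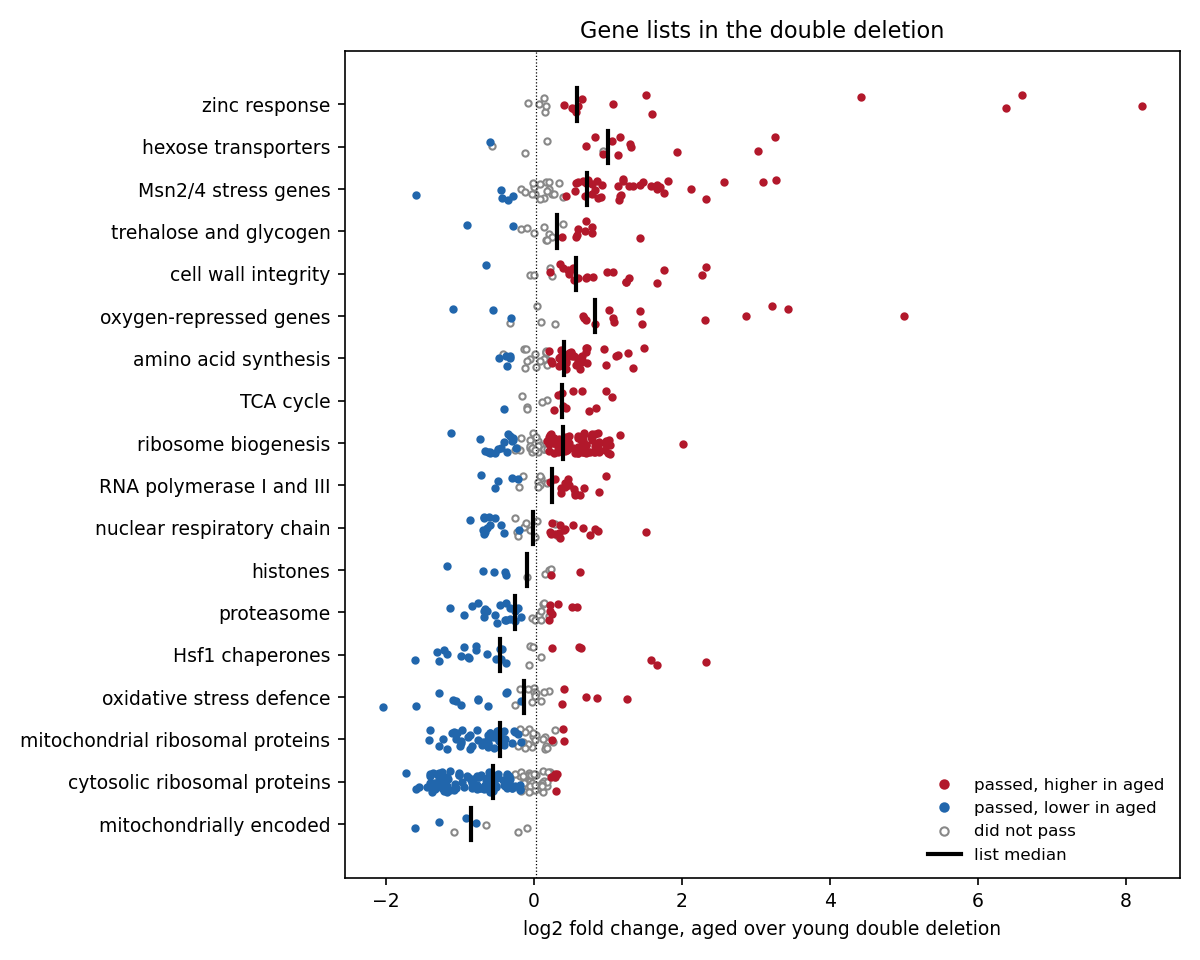
Log2 fold change of aged over young double deletion cells (horizontal axis) for the tested members of 18 gene lists, with red and blue points for genes that passed and black bars for list medians; the dotted line is the median of all genes, 0.03. Zinc, hexose transporter, stress and biogenesis genes lie mostly to the right, with medians of 0.59, 1.00, 0.72 and 0.39, and cytosolic ribosomal protein genes mostly to the left, with a median of -0.56; with library totals in place of TMM, 59 ribosomal protein genes were lower and 46 higher, and mitochondrial ribosomal protein, proteasome, histone and oxidative defence genes were more often higher than lower.

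The ribosome and the factors that build it parted. Of 137 cytosolic ribosomal protein genes 92 fell and 5 rose in aged double deletion cells, with a median of -0.56, and with library totals 59 fell and 46 rose. They took 27.1% to 28.3% of all counts in aged and 35.7% to 39.8% in young libraries, a share of raw counts that uses no scaling factor. RPL41A, which encodes the smallest ribosomal protein, had 2885, 3388 and 1848 CPM in aged and 10380, 8854 and 7755 CPM in young cells (-1.73 ± 0.225). RPS17A had 2874, 2391 and 2743 CPM in aged and 7700, 7949 and 5695 CPM in young cells (-1.41 ± 0.137). The 5 that rose were RPS9A, RPL7B, RPS24B, RPL5 and RPL36B, named after their values were seen, with RPS9A the highest (0.31 ± 0.0729); their number was 13 without young replicate 3, 3 without young replicate 1 or 2, and 2 without aged replicate 3. Mitochondrial ribosomal protein genes also fell more often than they rose, 48 against 3 of 72, but with library totals 22 fell and 24 rose. The 3 became 8 without young replicate 3, and 1 without young replicate 1, young replicate 2 or aged replicate 3.

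Of 115 ribosome biogenesis genes 78 rose and 17 fell in aged double deletion cells, with a median of 0.39, and with library totals 96 rose and 2 fell. DBP2, a DEAD-box RNA helicase, had 675, 664 and 747 CPM in aged and 148, 162 and 207 CPM in young double deletion cells (2.01 ± 0.144). IMP4, a component of the small subunit processome, had 119, 124 and 132 CPM in aged and 52.6, 52.7 and 61 CPM in young cells (1.17 ± 0.094), against 76.1, 72.8 and 80.1 CPM in aged wild type. HAS1, another helicase, rose by 1.02 ± 0.0825, and RSA4, a large subunit assembly factor, by 0.96 ± 0.074. In wild type 35 of the list rose and 40 fell, but with library totals 86 rose and 7 fell. Of the 115 genes, 51 had a higher age effect in the double deletion than in wild type and none a lower one, with a median difference of 0.36, and with library totals 34 were higher and none lower. Against the msn2 deletion 11 had a higher age effect and none a lower one, and with library totals neither direction held any gene. RRP7 was the lowest member (-1.12 ± 0.137). Among 28 genes of RNA polymerases I and III, 15 rose and 5 fell (3 without aged replicate 2), and with library totals 23 rose and 1 fell. The highest were RET1 (0.98 ± 0.115) and RPC34 (0.88 ± 0.111).

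The IMP4 promoter is shown for the PAC element, GATGAG, which marks ribosome biogenesis genes in yeast. Its window, chrXIV:485357-485656 on the plus strand of build R64, is given as above with the match in capitals.
IMP4: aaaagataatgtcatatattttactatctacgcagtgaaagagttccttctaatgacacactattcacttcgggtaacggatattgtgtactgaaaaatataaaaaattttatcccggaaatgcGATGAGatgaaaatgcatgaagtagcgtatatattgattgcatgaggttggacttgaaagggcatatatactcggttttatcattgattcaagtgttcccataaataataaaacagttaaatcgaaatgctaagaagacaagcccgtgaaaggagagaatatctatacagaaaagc
The match starts 126 bases before the start codon. The element, on either strand, lies in 93.9% of the 115 biogenesis windows and in 20.1% of all 5916.

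Gene length moved with these results. Among 270 tested genes of up to 300 bp the median log2 fold change was -0.43 in the double deletion and -0.25 in wild type, and among 2245 genes of 1001 to 2000 bp it was 0.13 in the double deletion and 0.14 in wild type. Falls of named genes included short ones. ZEO1, of 342 bp, had 5080, 4840 and 3482 CPM in aged and 21410, 20090 and 15800 CPM in young double deletion cells (-2.10 ± 0.208). GIS2, of 462 bp (-1.95 ± 0.108), and BLS1, of 369 bp (-1.78 ± 0.19), fell too. The part of length in these falls was not tested.

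Histone and proteasome genes differed from wild type in opposite senses. Of 11 histone genes 2 rose and 5 fell in the double deletion, and with library totals 6 rose and 1 fell. The 2 became 4 without young replicate 3 or aged replicate 2, and 1 without any other library of the double deletion. Of the 11, 7 had a higher age effect than in wild type and none a lower one (4 with library totals), and 6 a higher one than in the msn2 deletion (3 with library totals). HHO1, the linker histone, had 64.3, 73.5 and 74 CPM in aged and 41.7, 41.3 and 54.6 CPM in young double deletion cells (0.62 ± 0.106), while its change in wild type did not pass. HTA2, a histone H2A gene, fell in the double deletion by 1.18 ± 0.115 on the log2 scale. Of 35 proteasome genes 7 rose and 20 fell in the double deletion, and with library totals 16 rose and 6 fell. The 7 became 3 without young replicate 1 or aged replicate 1, and 2 without young replicate 2 or aged replicate 3. In wild type 16 rose and 8 fell, with library totals 30 rose and none fell, and 14 had a lower age effect in the double deletion than in wild type, none a higher one. The msn2 deletion resembled the double deletion here, with 7 higher and 17 lower (24 and 2 with library totals). No proteasome gene differed in age effect between these strains, but with library totals 4 were lower in the double deletion. RPN4, the transcription factor that drives proteasome genes, had 88.7, 73.1 and 82 CPM in aged and 154, 148 and 137 CPM in young double deletion cells (-0.84 ± 0.0858).

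Antioxidant genes were lower more often than higher, 12 against 5 of 28 in aged double deletion cells, and with library totals 7 against 15. GPX2, a glutathione peroxidase, had 162, 129 and 128 CPM in aged and 650.5, 631 and 448 CPM in young double deletion cells, and its fall (-2.04 ± 0.153) was larger than in wild type (difference -0.71 ± 0.207). GSH1, which makes the precursor of glutathione, fell by 1.29 ± 0.0967, and AHP1, a peroxiredoxin, by 1.06 ± 0.0863, both on the log2 scale. SOD1, the copper and zinc superoxide dismutase, had 293, 306 and 303 CPM in aged and 584, 594 and 613 CPM in young double deletion cells (-0.99 ± 0.093). In the msn2 deletion SOD1 had 692, 624 and 716 CPM in aged and 692, 687 and 665 CPM in young cells, and the difference of age effects was -0.98 ± 0.13. SRX1, sulfiredoxin, rose (1.26 ± 0.232). RCK1, a protein kinase linked to oxidative stress, had 32.7, 29.2 and 33.5 CPM in aged and 1.9, 2.36 and 1.69 CPM in young double deletion cells (4.00 ± 0.185).

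Genes that yeast represses in the presence of oxygen rose in 14 of 21 cases and fell in 3, beside 31.2% higher and 29.9% lower over all genes. ANB1, the hypoxic isoform of translation factor eIF5A, had 78, 68.3 and 87.7 CPM in aged and 10.8, 11 and 10.4 CPM in young double deletion cells (2.87 ± 0.106). TIR2, a cell wall mannoprotein, had 41.9, 50.5 and 36.2 CPM in aged and 3.59, 2.84 and 5.3 CPM in young cells (3.44 ± 0.18), and HEM13, a heme synthesis enzyme, rose by 1.01 ± 0.0788. Sterol synthesis genes rose in 18 of 29 cases and fell in 1, with ERG1, squalene epoxidase, at 1.25 ± 0.117. Of 26 genes of the cell wall integrity pathway 21 rose and 1 fell. The other strains were alike: 16 oxygen-repressed, 18 sterol and 20 cell wall genes rose in wild type, and 17, 15 and 22 in the msn2 deletion. GSC2, a glucan synthase subunit, had 119, 138 and 107 CPM in aged and 22.5, 22.1 and 28 CPM in young double deletion cells (2.32 ± 0.12). PIR3, a cell wall glycoprotein (2.27 ± 0.175), and SLT2, the pathway's MAP kinase (1.24 ± 0.117), rose as well. KDX1 rose by 1.76 ± 0.101, more than in wild type (difference 0.96 ± 0.137).

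The next 3 lists stand beside 31.2% higher and 29.9% lower over all genes. Of 62 amino acid synthesis genes 42 rose and 5 fell, and with library totals 56 rose and none fell. The Gcn4 element lies in 53.2% of their windows, against 8.1% of all windows. Of 34 iron regulon genes 18 rose and 4 fell (2 without aged replicate 3), and with library totals 26 rose and 1 fell. FIT2, a cell wall protein that retains siderophores, had 21.7, 25 and 21.6 CPM in aged and 4.78, 6.58 and 7.38 CPM in young double deletion cells (1.84 ± 0.148), a smaller rise than in the msn2 deletion (difference -1.40 ± 0.195). Among 22 biotin and vitamin genes 12 rose and 4 fell, and with library totals 14 rose and 2 fell. The thiamine transporter gene THI7 (2.10 ± 0.095) and the vitamin B6 synthesis gene SNZ1 (1.78 ± 0.145) rose. BIO3, an enzyme of biotin synthesis, had 76, 75.1 and 80.8 CPM in aged and 126, 122 and 121 CPM in young double deletion cells, against 172, 176 and 177 CPM in aged and 115, 108 and 109.9 CPM in young wild type. It fell in the double deletion (-0.67 ± 0.0695) and rose in wild type (0.66 ± 0.0663), a difference of -1.32 ± 0.0961. BIO5, a transporter of biotin precursors, had 46.1, 44.3 and 45 CPM in aged and 49.3, 49.7 and 57.2 CPM in young double deletion cells and did not pass, while in wild type it rose (1.06 ± 0.119; difference -1.26 ± 0.174). SPL2, a regulator of phosphate uptake, fell by 1.91 ± 0.179 on the log2 scale, with 7.73, 8.99 and 5.76 CPM in aged and 29.8, 28.4 and 24.8 CPM in young double deletion cells. In wild type SPL2 had 2.48, 2.85 and 2.81 CPM in aged and 3.83, 5.27 and 4.74 CPM in young cells.

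Mating genes showed a small amount of MATa-type transcript in these MAT@ cells. MFA1, which encodes a-factor, had 4.8, 4.99 and 7.05 CPM in aged and 0.423, 0.582 and 0.703 CPM in young double deletion cells (3.29 ± 0.284), a larger rise than in wild type (difference 2.03 ± 0.378). AGA2, the a-agglutinin adhesion subunit, had 2.34, 2.6 and 2.58 CPM in aged and 0.338, 0.514 and 0.422 CPM in young cells (2.53 ± 0.377). In all, 5 of 7 a-specific genes rose and none fell. MF(ALPHA)2, an alpha-factor gene, had 260.1, 251 and 270.5 CPM in aged and 908, 887 and 789 CPM in young cells (-1.72 ± 0.13). In bulk samples, fewer cells of a type and less RNA per cell cannot be told apart.

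Of 20 DNA damage and ribonucleotide reductase genes 6 rose and 8 fell, while with library totals 12 rose and 3 fell. Over all genes 31.2% rose and 29.9% fell, so the number that rose was near the share of all genes. Besides HUG1 (1.97 ± 0.19), the ribonucleotide reductase subunit genes RNR2 (1.34 ± 0.0906), RNR3 (1.32 ± 0.22) and RNR4 (0.99 ± 0.083) rose. RNR2 had 205, 206 and 207 CPM in aged and 76.8, 79.7 and 87.5 CPM in young double deletion cells, against 152, 147 and 169.5 CPM in aged wild type, and its rise was larger than in wild type by 0.51 ± 0.125. RFX1, a repressor of these genes, fell by 1.19 ± 0.148 on the log2 scale.

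Ribosomal DNA features took 0.364% to 0.509% of counts in aged and 0.0017% to 0.0026% in young double deletion libraries, and 0.064% to 0.076% in aged wild type. Of 15 features tested 13 were higher and none lower, beside 31.2% higher and 29.9% lower over all genes. The libraries were made from polyA RNA, so these shares also depend on which ribosomal transcripts the selection kept, and that part was not tested. RRT15, a short reading frame counted with the ribosomal DNA features, made up most of this share in aged double deletion cells. It took 0.371%, 0.440% and 0.304% of counts in aged replicates 1, 2 and 3, where all ribosomal DNA features took 0.433%, 0.509% and 0.364%. In aged wild type RRT15 took 0.0001% to 0.0002%. Without RRT15 the share in the aged double deletion was not above that of aged wild type. RRT15 had 3103, 3588 and 2539 CPM in aged and 0.888, 0.959 and 0.703 CPM in young double deletion cells, and 0.778, 1.66 and 1.32 CPM in aged wild type. RDN18-1, the 18S ribosomal RNA locus, rose by 4.24 ± 0.229, more than in wild type (difference 2.86 ± 0.355), while for RDN5-1, a 5S locus, the difference did not pass (5.06 ± 0.232 in the double deletion and 5.34 ± 0.233 in wild type). Of 85 small nucleolar and other stable RNAs 7 rose and 22 fell (13 without aged replicate 3), and with library totals 24 rose and 10 fell. The other 56 did not pass, and the part that fell was not above the 29.9% of all genes. Of 8 mitochondrially encoded protein genes 4 fell and none rose, with sums of 642, 621 and 294 CPM in aged and 1103, 894 and 929 CPM in young double deletion cells. COX1 and COX2 overlap other annotated reading frames, and COX2 (-1.61 ± 0.623) did not pass without aged replicate 3, the library with the low mitochondrial share (log2 fold change -0.917, adjusted p = 0.198 in edgeR).

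Distance from the chromosome end went with the age effect. Of 91 genes within 10 kb of an end, 41 rose and 5 fell in the double deletion, 27.5% were at least 2-fold higher, and the median was 0.72. The median was 0.37 among 179 genes at 10 to 25 kb, 0.14 among 373 at 25 to 50 kb, and 0.01 among 4478 genes beyond 100 kb, of which 4.33% were at least 2-fold higher. Wild type medians were 0.87 within 10 kb and 0.02 beyond 100 kb. Many subtelomeric genes belong to families with near-identical copies, such as PAU and COS, so counts of single members are uncertain. Of 17 tested PAU members 6 rose and none fell. The 6 became 3 with thinning to the smallest library, 4 in a fit of only the double deletion libraries and 10 with library totals. Of 11 COS genes 5 rose and 2 fell. Over all genes 31.2% rose and 29.9% fell.

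**Figure D5:**
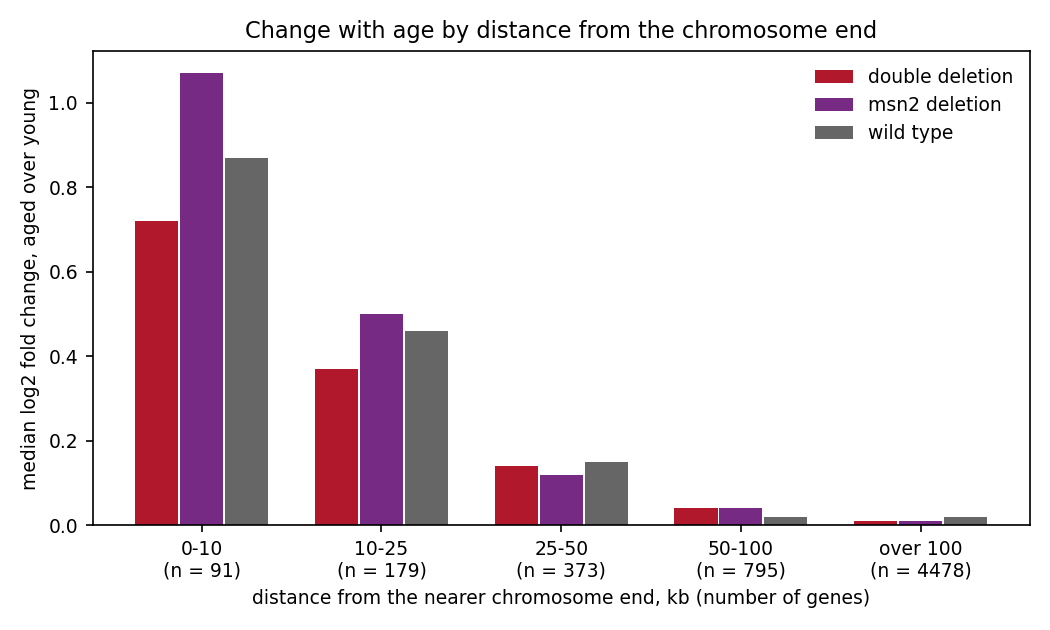
Median log2 fold change of aged over young cells (vertical axis) for genes grouped by distance from the nearer chromosome end in kb (horizontal axis), with bars for the double deletion, the msn2 deletion and wild type. In the double deletion the median is 0.72 within 10 kb and 0.01 beyond 100 kb.

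Against the msn2 deletion, which keeps MSN4, 422 genes had different age effects (6.18%), 117 larger (1.71%) and 305 smaller (4.46%) in the double deletion. In the msn2 deletion itself 69.6% of genes passed with age, 36.6% higher and 33.0% lower. Of the 61 stress genes 33 had a smaller age effect in the double deletion and none a larger one, with a median difference of -0.72, and 40 and none with library totals. The 6 lowest differences were in BDH2, a putative butanediol dehydrogenase (-1.99 ± 0.202), SOL4, a 6-phosphogluconolactonase (-1.95 ± 0.264), YER067C-A (-1.94 ± 0.315), GND2 (-1.88 ± 0.199), BIO5 (-1.87 ± 0.175) and GPH1 (-1.85 ± 0.176). BDH2 had 13.6, 16.8 and 14.3 CPM in aged and 7.52, 10.4 and 11.4 CPM in young double deletion cells, against 52.8, 49.5 and 48.8 CPM in aged and 9.15, 6.75 and 9.55 CPM in young msn2 deletion cells. SOL4 lay at 2.11, 3 and 1.65 CPM in aged double deletion cells and at 14.5, 13.9 and 16.1 CPM in aged msn2 deletion cells. On the other side, LSR1, the U2 spliceosomal RNA (1.22 ± 0.218), and YMC2, a mitochondrial carrier (0.99 ± 0.132), had higher age effects in the double deletion, after RRT15, YOR387C, VEL1 and ZPS1. With all libraries thinned to the smallest, the differences of SOL4 (adjusted p = 0.125) and VEL1 (adjusted p = 0.248) no longer passed in edgeR. YMC2 itself did not pass in the double deletion, and its difference came with a fall in the msn2 deletion (-0.88 ± 0.0926).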

How the data were processed

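The deposited table holds expected counts, estimated read counts with fractions for 7118 features, which the authors made, per the submitters' processing notes, on build R64 (sacCer3), with bcl2fastq and cutadapt 2.6 before alignment by STAR 2.7.6a, and counting by featureCounts (Subread 1.6.2); counting options are not given in the sources used here. Of values above 0, 54.6% were not whole, and all were rounded. All 18 libraries were fitted with edgeR 4.0.16 in R 4.3.3 (TMM, filterByExpr, 1 mean per group, 12 residual degrees of freedom), and 6833 features were tested with two-sided quasi-likelihood F tests, Benjamini-Hochberg adjusted per contrast at 0.05. The fit was tested on simulated data. CPM values use TMM factors. Directional libraries were made, but counts of overlapping or near-identical genes may not be separable. Promoters came from the RefSeq R64 genome. The members, lists and alternatives were chosen with earlier results of these data known. Named genes are MSN2 and MSN4, the 14 highest and 14 lowest log2 fold changes of genes that passed, averaged 3 or more in log2 CPM and did not overlap between ages, up to 4 members per list with the smallest p, the 6 highest and 6 lowest differences per strain pair, and fixed genes; other list members named in the text were chosen after their values were seen. Alternatives were DESeq2 1.42.0, other scalings and filters, thinning, a replicate block, leaving out each library and testing against 0.5 on the log2 scale.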

Additional observations from a re-analysis of the deposited data

Results flagged for a closer look

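Age effects that differed between strains are listed here because the difference itself was tested. Against wild type 1104 genes differed. The highest differences, double deletion minus wild type on the log2 scale, were RRT15 at 11.97, YOR387C at 2.15, HSP12 at 2.03, VEL1 at 2.00, HUG1 at 1.87 and TMA10 at 1.83. The lowest were GND2 at -2.40, SIP18 at -2.23, HSP26 at -2.22, EGO4 at -2.11, HSP30 at -2.10 and YFR052C-A at -1.77. Against the msn2 deletion 422 genes differed. The highest differences, double deletion minus msn2 deletion, were RRT15 at 12.19, YOR387C at 1.82, VEL1 at 1.52, ZPS1 at 1.41, LSR1 at 1.22 and YMC2 at 0.99. The lowest were BDH2 at -1.99, SOL4 at -1.95, YER067C-A at -1.94, GND2 at -1.88, BIO5 at -1.87 and GPH1 at -1.85. Groups hold 3 libraries, so single libraries were not tested for standing apart.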

How the results depend on the processing

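The count of 4179 genes stayed within 1.5 times under every alternative but the test against a log2 fold change of 0.5, which left 1334, and that test left 353 of the 935 listed genes that passed. A like count can hold other genes. With library totals 4931 genes passed, and 3017 of them were among the 4179. Of the 786 genes at least 2-fold different, 454 remained so with library totals. Leaving out 1 library gave 3661 to 4459 genes, and 649 to 1001 at least 2-fold. The 1104 differences from wild type became 653 with thinning to the smallest library, which leaves less depth, 118 against 0.5, and 798 to 1339 with 1 library left out. The 422 differences from the msn2 deletion became 212 with thinning, 77 against 0.5, 645 in DESeq2 (284 higher, 361 lower, against 117 and 305 in edgeR; the cause was not tested) and 300 to 443 with 1 library left out. With library totals, 239 differences from wild type were higher and 684 lower, and 28 and 542 from the msn2 deletion. Only named genes were checked one by one for direction. Among them library totals turned GUP1 (0.047), GPP1 (0.079), SWI5 (0.027), DSE4 (0.03), MF(ALPHA)1 (0.107), KAR2 (0.068) and RIM15 (0.059), none of which then passed. A further 25 results of named genes kept their direction but no longer passed, and 11 passed only with library totals. SIP18 (0.63) did not pass in the double deletion with thinning (0.103) or without young replicate 2 or 3 or aged replicate 1 or 2 (0.508 to 0.626), and for VEL1 the difference from the msn2 deletion was 0.58 and did not pass with thinning, nor did that of SOL4. Aged and young libraries of the double deletion with the same replicate number had residual correlations of 0.238, -0.344 and -0.0478. Of its 3 aged libraries 1 correlated best with its own number. In wild type all 3 pairs were over 0.1 (0.192, 0.436 and 0.178), and 2 of 3 aged libraries correlated best with their own number. With 3 libraries per group these values cannot settle whether the numbers pair the libraries. With a replicate block 4121 genes passed in the double deletion, and 1011 differences from wild type passed. The depth of the aged double deletion libraries limits genes of a few CPM most.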

Other observations

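Of 28 autophagy genes 12 rose and 7 fell in aged double deletion cells, and with library totals 19 rose and 5 fell, where 61.2% of all genes passed. ATG39, a receptor for the nuclear envelope, had a log2 fold change of 1.38 ± 0.163 and ATG13, a regulator of the initiating kinase, one of -0.79 ± 0.0906. Of 25 genes of vacuolar proteases and proton pumps 11 rose and 7 fell, and with library totals 18 rose and 3 fell. PEP4, the vacuolar aspartyl protease (1.12 ± 0.092), and PRB1, a vacuolar serine protease (1.38 ± 0.111), rose about as in wild type (1.12 ± 0.0906 and 1.47 ± 0.107). Of 17 TCA cycle genes 11 rose and 1 fell, 16 and none with library totals, with SDH2, a succinate dehydrogenase subunit, at 1.06 ± 0.141.

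Purine synthesis genes were picked after their values were seen, so they carry no count or test as a list. ADE17 had 159, 168 and 161 CPM in aged and 63.6, 65.1 and 55.2 CPM in young double deletion cells (1.41 ± 0.0769). ADE1 (1.51 ± 0.0907), ADE2 (1.23 ± 0.103) and ADE5,7 (1.19 ± 0.0911) were also higher in aged cells, and ADE8 did not pass (0.05 ± 0.0795). Over the 11 genes examined the log2 fold changes with age ran from 0.05 to 1.51 in the double deletion and from -0.05 to 1.68 in wild type. INO1, inositol phosphate synthase, had 44.9, 38.4 and 50.3 CPM in aged and 11.8, 10.5 and 11.6 CPM in young double deletion cells (1.99 ± 0.13), and was likewise chosen after its values were seen.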
